A study of Mus musculus with 6 samples.

Results

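Integrins and laminins are the receptors and ligands by which keratinocytes hold to, and crawl over, the matrix beneath them. Their subunit genes were examined in migrating keratinocytes of mouse skin wounds. The set was taken from gene symbols: each probe set annotated with exactly 1 symbol of the integrin alpha (Itga), integrin beta (Itgb) or laminin alpha, beta or gamma chain (Lama, Lamb, Lamc) families, without the integrin-binding proteins Itgb1bp and Itgb3bp. This gave 37 of 19938 genes, namely 18 integrin alpha, 9 integrin beta, 5 laminin alpha, 3 laminin beta and 2 laminin gamma genes. The rule reads symbols and no difference between groups. Where a gene had several probe sets the one with the highest mean signal stood for it, and Itgad was the single member with more than 1.

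The samples were leading keratinocytes of the epithelial tongue, cut out by laser from fixed skin wounds 3 days after wounding, with the cells from a sample's sections collected together. The 3 diabetic samples came from mice made diabetic by 16 weeks on a diet high in fat and fructose, begun at 8 weeks of age. The 3 normal samples came from mice kept on a control diet for the same time. Neither strain, sex nor any genetic change is given in the sources used here, and the groups are described here by diet. Sample titles use the words biological replicate, but nothing states that each array is a separate mouse. P-values then measure the spread between these samples. The comparison asks how keratinocyte transcripts in closing wounds differ with diabetes.

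An integrin is a dimer of 1 alpha and 1 beta subunit that binds matrix outside the cell and the actin or keratin skeleton inside. A laminin is a trimer of 1 alpha, 1 beta and 1 gamma chain, and laminins are main components of the basement membrane. Resting basal keratinocytes are anchored by the dimer of Itga6 and Itgb4 products, which sits in hemidesmosomes and binds a laminin that holds the Lama3 and Lamb3 chains. When the epidermis closes a wound, cells at the edge loosen these anchors, lay down that laminin ahead of them and use integrins that bind collagen, fibronectin, tenascin and vitronectin.

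All signals below are log2 probe set values, and all differences are diabetic minus normal on that scale, with n = 3 arrays per group. The signals were low. A background limit was set on each array from 1190 chemosensory receptor genes, as the 95th percentile of their signals, since most of these are silent outside the nose. It lay between 1.98 and 2.12, while the median gene lay between 1.79 and 1.83 and the median member between 1.79 and 1.87. Of the 37 members, 4 exceeded the limit on every array (10.8%), 16 on some and 17 on none. Over all genes the share above it on all arrays was 17.3%. The share above it on no array was 45.9% for the members and 51.5% for all genes. On single arrays, 12, 11 and 8 members exceeded the limit in diabetic samples and 11, 9 and 7 in normal samples. The members' shares lay between 18.9% and 32.4%, and those of all genes between 27.4% and 36.5%. The limit takes no account of probe composition, so it marks a signal as dim on this array design and does not show that the RNA is absent.

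**Figure D1:**
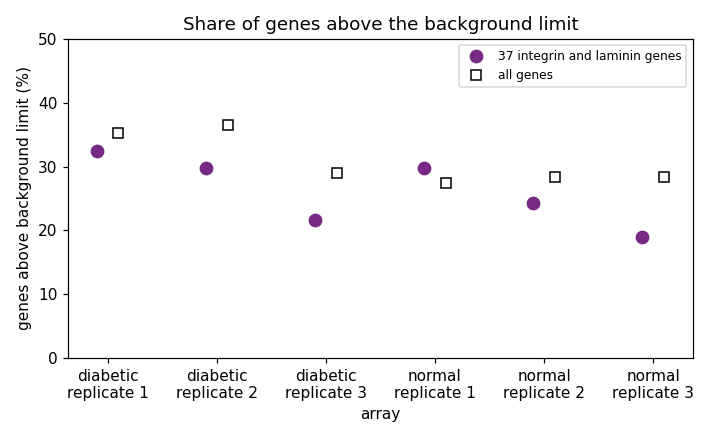
Percentage of genes above the background limit on each array (vertical axis) for the 37 integrin and laminin genes (filled circles) and for all 19938 genes (open squares), with diabetic arrays on the left and normal arrays on the right. The members' share lies below that of all genes on diabetic replicates 1, 2 and 3 and on normal replicates 2 and 3, and above it on normal replicate 1.

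The label of the cells was checked against keratinocyte genes. Of 16 keratinocyte markers, 3 were above the limit on all 6 arrays, the basal keratin Krt15, stratifin (Sfn) and the suprabasal keratin Krt10, and 4 on none, which included E-cadherin (Cdh1), the protein by which the cells were located. The mean signal of these 16 markers lay between 1.99 and 2.06 on diabetic arrays and between 2.06 and 2.24 on normal arrays. For comparison, 3 of 9 fibroblast markers, 4 of 11 skeletal muscle markers and 0 of 17 leukocyte markers were above the limit on all 6 arrays. Ribosomal protein genes, looked at for RNA quality, averaged 3.58 to 3.71 on diabetic and 3.04 to 3.27 on normal arrays. These 11 genes did not share a sign, as 6 were higher in diabetic samples and 5 lower. An unadjusted p under 0.05 was reached by 5 of the higher genes, beside 2.64% of all genes, and by 0 of the lower ones. The largest differences were 2.51 (Rpl26) and 1.74 (Rpl5) among the higher genes, and -0.47 (Rpl14) and -0.41 (Rplp1) among the lower. The part of ribosomal protein genes in the results was not tested. The share of keratinocyte markers above the limit on all arrays was 18.8%, beside 17.3% over all genes. These markers thus do not stand out from the background share, and the keratinocyte label rests on the capture. In such samples, fewer cells of a type and less RNA per cell cannot be told apart.

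No integrin or laminin gene changed past the adjusted threshold in diabetic keratinocytes. With limma and Benjamini-Hochberg adjustment over all genes, 0 of 37 members passed, as did 0% of all genes. The smallest adjusted p among the members was 0.780. At an unadjusted p under 0.05 there was 1 member, lower in diabetic samples, and 0 were higher. Over all genes those shares were 2.92% lower and 2.64% higher, so the members' count is near the background. By sign, 23 of the 37 were higher in diabetic samples and 14 lower (62.2% higher), against 48.7% higher over all genes. The count rests on single arrays: leaving out diabetic replicate 2 gave 17 of 37, and leaving out diabetic replicate 3 gave 24. The median difference was 0.02 for the members and -0.004 for all genes. The median size of a difference, whatever its sign, was 0.07 for the members and 0.10 for all genes.

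The precision of these arrays bounds the differences in signal. Differences of 27 members were smaller than their own standard error (SE). The 95% confidence interval lay within 2-fold in either direction for all 37 members and within 1.5-fold for 36, the exception being Itgb2l. For genes at background this describes array signal and does not bound the difference in RNA. With 3 arrays against 3, a two-sided exact permutation test of a single gene cannot give a p below 0.1.

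**Figure D2:**
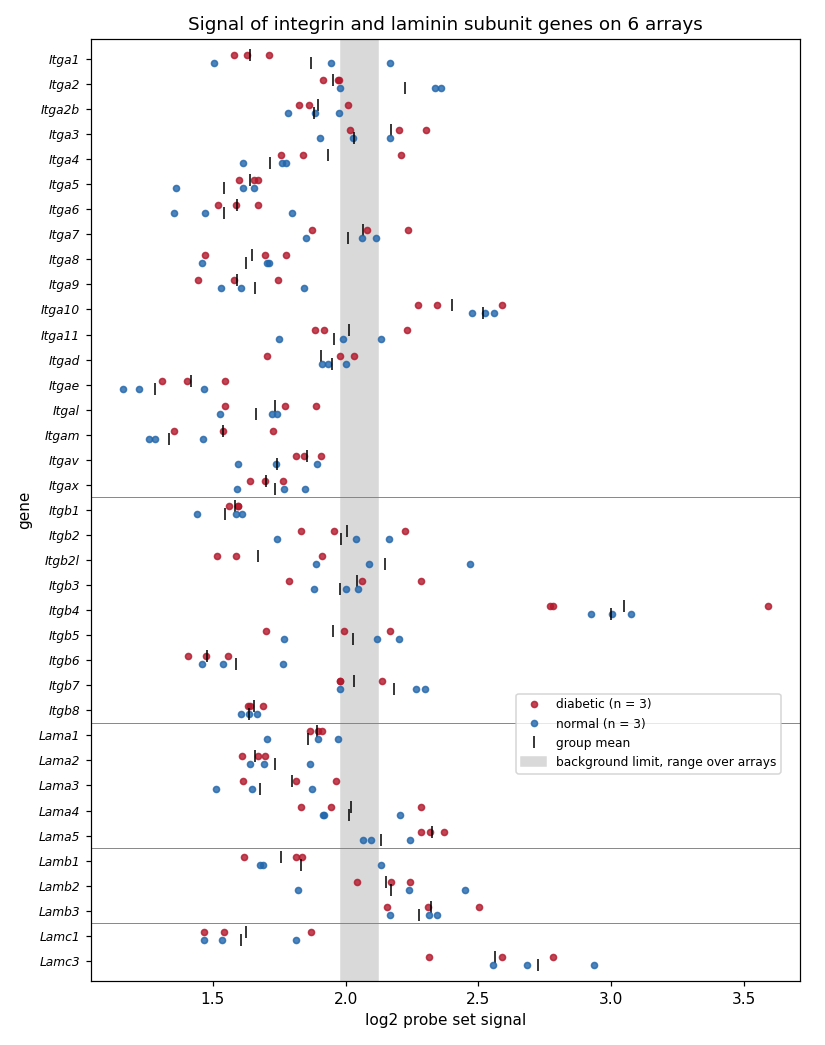
Log2 probe set signal (horizontal axis) of each of the 37 genes on the 3 diabetic arrays (red) and the 3 normal arrays (blue), with group means as black ticks, in the order integrin alpha, integrin beta, laminin alpha, laminin beta and laminin gamma. The grey band is the range of the background limit over arrays, 1.98 to 2.12, and Itga10, Itgb4, Lamb3 and Lamc3 lie to the right of it on every array.

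The arrays of the groups did not overlap for 2 members. Itga2, the collagen-binding partner of the beta 1 subunit, was at 1.92, 1.97 and 1.97 on diabetic arrays and at 2.34, 1.98 and 2.36 on normal arrays. All 3 diabetic values lay below the normal ones, but the gap to normal replicate 2 was under 0.01. The difference was -0.27 (SE 0.13, limma adjusted p 0.893). Lama5, the alpha chain of the laminins common to adult basement membranes, was at 2.32, 2.37 and 2.28 on diabetic arrays and at 2.24, 2.07 and 2.10 on normal arrays. All 3 diabetic values lay above the normal ones, and the limit was passed on 3 diabetic arrays and 1 normal array. The difference was 0.19 (SE 0.12, limma adjusted p 0.893). Over all genes, 5.02% had diabetic arrays wholly above and 5.66% wholly below, so 1 member each way is near the background.

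Promoter sequence is shown for these 2 genes because they are the members whose groups were separate. The stretches run 5′ to 3′ on the minus strand, from 200 bases before the RefSeq start to 20 after it (build GRCm38.p6). Capitals mark the GC box, GGGCGG on either strand, a motif bound by Sp-family factors. The Itga2 stretch is chr13:114932081-114932300 and the Lama5 stretch is chr2:180225840-180226059.
Itga2: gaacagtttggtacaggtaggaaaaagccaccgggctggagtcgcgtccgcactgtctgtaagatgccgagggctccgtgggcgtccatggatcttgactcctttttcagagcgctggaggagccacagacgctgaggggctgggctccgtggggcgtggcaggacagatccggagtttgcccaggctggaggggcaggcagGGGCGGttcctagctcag
Lama5: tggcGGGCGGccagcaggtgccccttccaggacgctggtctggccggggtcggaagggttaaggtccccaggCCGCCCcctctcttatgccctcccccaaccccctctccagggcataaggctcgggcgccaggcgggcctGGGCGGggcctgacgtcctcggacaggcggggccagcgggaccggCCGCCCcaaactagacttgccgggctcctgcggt
The Lama5 stretch holds 4 matches, all before the start, and is 73.6% G and C. The Itga2 stretch holds 1 match, which begins 3 bases into the transcript, and is 63.2% G and C.

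RefSeq windows of 300 bases, 250 before and 50 after a start, were matched by symbol for 24 of the 37 members, as 27 windows. On either strand the GC box stood in 12 of the 27 (44.4%), against 35.7% of all 32851 windows. The AP-1 motif TGANTCA stood in 3 windows (11.1%), those of Itga3, Itga9 and Itgax, against 7.81% of all windows. The TATA motif TATAAA stood in 0 of the 27, against 13.6% of all windows. These matches describe letters and do not show that a factor binds.

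**Figure D3:**
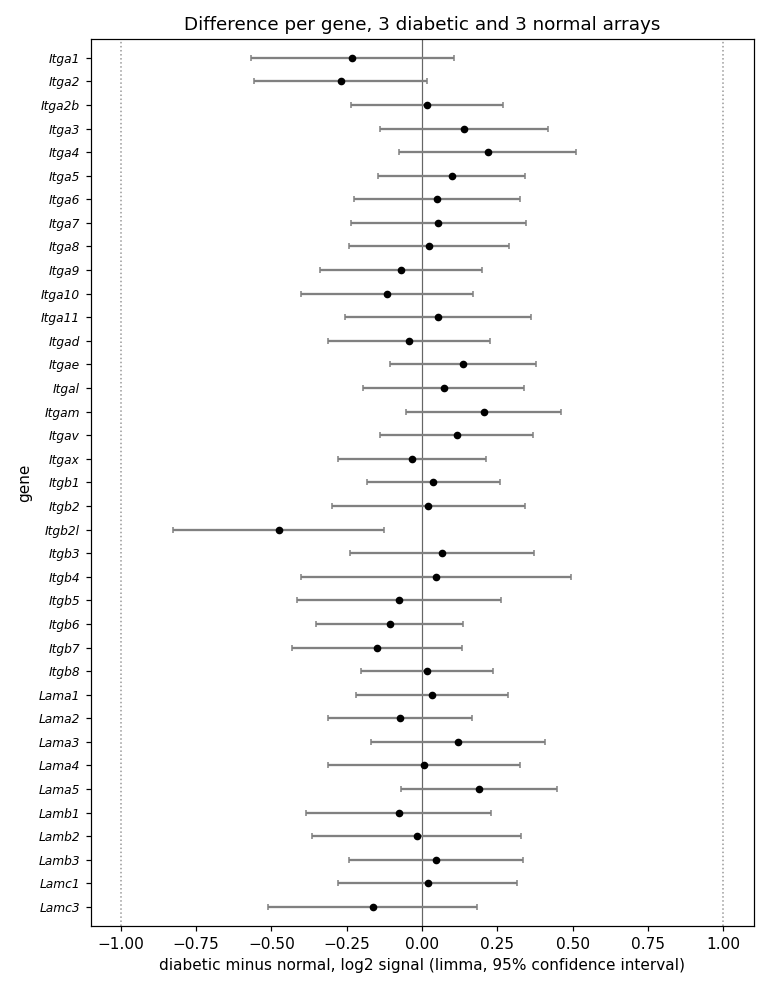
Difference in log2 signal, diabetic minus normal (horizontal axis), for each of the 37 genes, with limma's 95% confidence interval (bars, n = 3 arrays per group). Dotted lines mark a 2-fold difference either way. Every interval lies between them, and the interval of Itgb2l alone excludes 0, before any adjustment for the number of genes.

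Among the hemidesmosome genes, 1 integrin and 1 laminin gene were above the limit on every array. Itgb4, the beta subunit found in hemidesmosomes, was at 2.78, 3.59 and 2.77 on diabetic arrays and at 2.92, 3.07 and 3.00 on normal arrays. Diabetic replicate 2 was the highest and the other 2 diabetic arrays were below all normal ones. The difference of 0.05 (SE 0.21) became -0.23 when diabetic replicate 2 was left out and 0.19 when diabetic replicate 3 was, so 1 array decides its sign. Lamb3, the beta chain of the wound-edge laminin, was at 2.16, 2.50 and 2.31 on diabetic arrays and at 2.17, 2.31 and 2.34 on normal arrays. The groups overlapped throughout, with a difference of 0.05 (SE 0.13) that was -0.04 without diabetic replicate 2 and -0.007 without normal replicate 1.

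The partners of these 2 genes were under the limit on every array. Itga6, the alpha subunit paired with Itgb4, was at 1.59, 1.52 and 1.67 on diabetic arrays and at 1.80, 1.47 and 1.36 on normal arrays. Lama3, the alpha chain paired with Lamb3, was at 1.61, 1.96 and 1.81 on diabetic arrays and at 1.65, 1.87 and 1.51 on normal arrays. In both genes the diabetic values lay inside or across the normal range. The differences were 0.05 (SE 0.13) for Itga6 and 0.12 (SE 0.13) for Lama3, the second being 0.04 without diabetic replicate 2 or normal replicate 3. That of Itga6 was -0.04 without normal replicate 3.

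The integrins that pair with beta 1 covered collagen, fibronectin, laminin and tenascin binding. Itgb1 itself was under the limit on all arrays, at 1.60, 1.56 and 1.59 on diabetic and 1.59, 1.44 and 1.61 on normal arrays, a difference of 0.04 (SE 0.10). Itga3, a laminin-binding partner, was at 2.30, 2.02 and 2.20 on diabetic and 2.03, 1.91 and 2.17 on normal arrays. It was above the limit on 3 diabetic and 1 normal arrays, and the groups overlapped (difference 0.14, SE 0.13, and 0.08 without diabetic replicate 1). On diabetic replicates 1 and 2 the limit stood at 1.98 and 2.01, lower than on the other 4 arrays.

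Itga5, the fibronectin-binding alpha subunit that appears on keratinocytes in wounds, was at 1.65, 1.60 and 1.67 on diabetic and 1.36, 1.61 and 1.66 on normal arrays. Normal replicate 1 was low and the other arrays were alike. The difference of 0.10 (SE 0.11) was 0.007 without normal replicate 1. Itga9, a tenascin-binding subunit, was at 1.58, 1.75 and 1.45 on diabetic and 1.60, 1.53 and 1.84 on normal arrays, a difference of -0.07 (SE 0.12). Both genes were under the limit on all arrays.

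Itga2, described above, was over the limit on 2 normal and 0 diabetic arrays. Without normal replicate 2 its difference was -0.39 (limma adjusted p 0.651). Its neighbour Itga1, another collagen-binding partner of beta 1, lies on the same chromosome 13 with 1 other annotated gene starting between them. Itga1 was at 1.63, 1.71 and 1.58 on diabetic and 1.94, 2.17 and 1.503 on normal arrays. Normal replicate 3 was the lowest array of all and normal replicate 2 the highest. The difference of -0.23 (SE 0.15) was -0.42 without normal replicate 3 and -0.08 without normal replicate 2.

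The alpha V integrins, which bind vitronectin, fibronectin and latent TGF-beta, were dim. Itgav was at 1.81, 1.84 and 1.91 on diabetic and 1.74, 1.59 and 1.89 on normal arrays, a difference of 0.11 (SE 0.12) that was 0.04 without normal replicate 2. Itgb6, the epithelial partner that is raised in wound keratinocytes and activates latent TGF-beta, was at 1.48, 1.56 and 1.41 on diabetic and 1.76, 1.46 and 1.54 on normal arrays. Normal replicate 1 was the high one, and the difference of -0.11 (SE 0.11) was -0.02 without it. Itgb8, which also activates latent TGF-beta, spanned 1.63 to 1.69 on diabetic and 1.61 to 1.67 on normal arrays, the narrowest range of any member. Itgb5, the vitronectin-binding partner, was at 2.17, 1.99 and 1.70 on diabetic and 2.20, 1.77 and 2.12 on normal arrays, above the limit on 1 array of each group (difference -0.08, SE 0.15).

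The epidermal and wound-edge members numbered 15. Of these, 11 were higher and 4 lower, or 73.3% higher, beside 48.7% over all genes. With 1 array left out, Itga6, Itgb1, Itgb4, Lamb3 and Lamc1 of the higher ones and Itga9 and Itgb5 of the lower ones turned sign. An unadjusted p under 0.05 was met by 0 of the 15, and their median difference was 0.05, beside -0.004 over all genes. Lamc1, the gamma chain shared by most laminins and the last of the 15, was at 1.47, 1.87 and 1.54 on diabetic and 1.81, 1.54 and 1.47 on normal arrays, with a difference of 0.02 (SE 0.14). Of the 15, 9 were above the limit on no array (60.0%), beside 51.5% of all genes. Of the 16 keratinocyte markers 5 were higher and 11 lower, and their median was -0.13. The marker with the smallest p was Trp63, a transcription factor that basal cells need, with a difference of -0.31 (limma adjusted p 0.887). The basal keratins did not share a sign, as Krt14 and Krt5 differed by 0.23 and 0.19 and Krt15 by -0.12. Whether marker levels bear on the integrin values was not tested.

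Integrins of leukocytes and platelets held the member with the smallest p. Itgb2l, a mouse gene related to the leukocyte beta subunit gene Itgb2, was at 1.59, 1.91 and 1.52 on diabetic and 2.09, 2.47 and 1.89 on normal arrays. Diabetic replicate 2 was just above normal replicate 3, so the groups overlapped. Its diabetic mean was 1.67 ± 0.21 and its normal mean 2.15 ± 0.29 (SD, n = 3 each), which differ by -0.48 (SE 0.16, 95% interval -0.83 to -0.12). It did not pass (limma adjusted p 0.780), and it was above the limit on normal replicate 2 alone. The difference ran from -0.61 without normal replicate 3 to -0.32 without normal replicate 2.

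Itgb2 itself was at 1.83, 2.22 and 1.96 on diabetic and 1.74, 2.16 and 2.04 on normal arrays, a difference of 0.02 (SE 0.15). Its alpha partners lie on chromosome 7, with Itgam, Itgax and Itgad in a row and 1 other annotated gene starting between each pair. Itgam, the partner on neutrophils and macrophages, was at 1.73, 1.54 and 1.35 on diabetic and 1.46, 1.26 and 1.28 on normal arrays. The diabetic arrays were the higher ones apart from replicate 3, and the difference was 0.20 (SE 0.12, limma adjusted p 0.893), or 0.11 without diabetic replicate 1. Itgax, Itgad and Itgal, the partners on dendritic cells, some macrophages and lymphocytes, differed by -0.03, -0.04 and 0.07. The second probe set of Itgad differed by -0.11. These 4 alpha genes were under the limit on all arrays.

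The alpha 4 gene Itga4, whose dimers bind the vascular adhesion molecules VCAM-1 and MAdCAM-1, was at 2.21, 1.84 and 1.76 on diabetic and 1.61, 1.76 and 1.78 on normal arrays. Diabetic replicate 1 stood above the rest, and the difference of 0.22 (SE 0.14) was 0.08 without it. Itgb7, a partner of alpha 4, was at 2.14, 1.98 and 1.98 on diabetic and 1.98, 2.27 and 2.30 on normal arrays, with a difference of -0.15 (SE 0.13) that was -0.09 without normal replicate 3. Itgae, whose dimer with beta 7 binds E-cadherin on epithelium, was at 1.31, 1.40 and 1.55 on diabetic and 1.22, 1.47 and 1.16 on normal arrays (difference 0.14, SE 0.11, and 0.07 without diabetic replicate 3). It was under the limit throughout. E-cadherin (Cdh1) itself was at 1.88, 1.84 and 1.92 on diabetic and 2.04, 2.06 and 2.01 on normal arrays, also under the limit throughout (limma adjusted p 0.911).

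The platelet receptor genes Itga2b and Itgb3 differed by 0.02 (SE 0.12) and 0.07 (SE 0.14), with overlapping groups. Signs across these 11 leukocyte and platelet members were 7 higher against 4 lower, and the median was 0.02. Of 17 leukocyte markers 5 were higher and 12 lower in diabetic samples (29.4% higher), beside 48.7% higher over all genes. Above the limit on no array were 11 of the 17 (64.7%), the common leukocyte antigen gene Ptprc among them, beside 51.5% of all genes. The mean signal of these 17 markers lay between 1.69 and 1.74 on diabetic and between 1.70 and 1.87 on normal arrays. All 3 measured platelet markers, Pf4, Ppbp and Gp9, were under the limit on every array. Their part in the values of these integrins was not tested.

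Members known from mesenchyme, vessels, muscle and nerve included 2 that exceeded the limit on all arrays. Lamc3, a laminin gamma chain, was at 2.31, 2.78 and 2.59 on diabetic and 2.68, 2.94 and 2.56 on normal arrays. The groups overlapped, and the difference of -0.16 (SE 0.16) became -0.04 when diabetic replicate 1 was left out and -0.27 when diabetic replicate 2 was. Itga10, a collagen-binding subunit typical of cartilage, was at 2.27, 2.34 and 2.59 on diabetic and 2.47, 2.52 and 2.56 on normal arrays, a difference of -0.12 (SE 0.13) that was -0.05 without diabetic replicate 1. Diabetic replicate 3 was the highest of all 6 arrays and the other 2 diabetic arrays were the lowest.

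Lamb2, the beta chain of laminins at muscle and vessel basement membranes, was above the limit on 3 diabetic and 2 normal arrays. Its values were 2.24, 2.04 and 2.17 on diabetic and 2.45, 2.24 and 1.82 on normal arrays, so the normal arrays held both the highest and the lowest (difference -0.02, SE 0.16). Lama4, the alpha chain of vessel laminins, spanned 1.83 to 2.29 on diabetic and 1.91 to 2.21 on normal arrays, with a difference of 0.007 (SE 0.15). Lamb1, the beta chain of many laminins, spanned 1.62 to 1.83 on diabetic and 1.68 to 2.13 on normal arrays, with a difference of -0.08 (SE 0.14).

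Itga7, the laminin-binding integrin of skeletal muscle, was at 1.87, 2.24 and 2.08 on diabetic and 1.85, 2.06 and 2.12 on normal arrays, a difference of 0.05 (SE 0.13). Lama2, the alpha chain of muscle and nerve laminin, was under the limit on all arrays, with a difference of -0.07 (SE 0.11) that was -0.007 without normal replicate 3. Both overlapped between groups. Over the same arrays all 11 skeletal muscle markers were higher in diabetic samples by sign, with a median difference of 0.16 and 2 at an unadjusted p under 0.05. Over all genes 48.7% were higher by sign and 2.64% were higher at that p, with a median of -0.004. For 4 of the 11 the diabetic arrays lay wholly above, beside 5.02% of all genes. The mean signal of these markers lay between 2.30 and 2.48 on diabetic and between 2.17 and 2.26 on normal arrays. Their part in the muscle-associated members was not tested.

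The remaining members of this class were the collagen-binding Itga11 (difference 0.05), the nephronectin-binding Itga8 (0.02) and Lama1 (0.03), the laminin alpha chain of early embryos. Itga11 was above the limit on diabetic replicate 1 and normal replicate 1, and Itga8 and Lama1 on no array. Signs in the class were 5 higher against 6 lower of 11, and the median was -0.02.

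**Figure D4:**
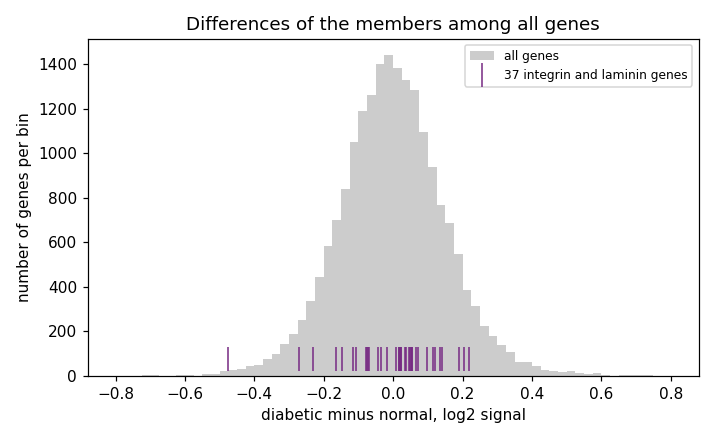
Number of genes (vertical axis) by difference in log2 signal, diabetic minus normal (horizontal axis, from -0.8 to 0.8), for all genes in grey, with the 37 integrin and laminin genes as purple ticks. The ticks run from -0.48 (Itgb2l) to 0.22 (Itga4) within the spread of all genes. The 25 genes beyond the plotted range are not drawn.

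Genes that work with these receptors also gave no call. Beside the counts of their 5 lists stand the shares over all genes. By sign 48.7% were higher, and at an unadjusted p under 0.05 the shares were 2.64% higher and 2.92% lower. Of 8 hemidesmosome and tetraspanin partners 6 were higher and 2 lower, with 1 higher at an unadjusted p under 0.05 and a median difference of 0.16. That gene was Cd151, the tetraspanin that binds laminin-binding integrins, at 1.60, 1.83 and 1.82 on diabetic and 1.48, 1.38 and 1.39 on normal arrays (difference 0.33, SE 0.11, limma adjusted p 0.780). The groups did not overlap, as for 5.02% of all genes in this direction, and every value was under the limit. Cd63, a tetraspanin of endosomes, differed by 0.51 (SE 0.25) with diabetic replicate 1 high, at 3.21, 1.87 and 2.47 on diabetic against 1.97, 1.96 and 2.10 on normal arrays. Without that array its difference was 0.16. Plec, the hemidesmosome plakin that ties Itgb4 to keratin, differed by 0.26 (SE 0.15), and by 0.10 without diabetic replicate 2.

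Of 22 integrin activators and adhesion adaptors the signs were 14 higher against 8 lower, with 1 higher at an unadjusted p under 0.05 and a median difference of 0.03. Tln1, the talin that switches integrins to their binding state, was at 2.00, 2.05 and 2.15 on diabetic and 1.83, 1.71 and 1.88 on normal arrays. It was above the limit on all 3 diabetic and 0 normal arrays, and the groups did not overlap (difference 0.26, SE 0.11, limma adjusted p 0.887). The limit was 1.98 and 2.01 on diabetic replicates 1 and 2, but 2.11 to 2.12 on normal arrays, which those 2 diabetic values would not pass. Over all genes, 5.02% had diabetic arrays wholly above. Apbb1ip, which links Rap1 to talin, differed by -0.22 (SE 0.14) and the GTPase gene Rap1a by -0.21 (SE 0.16). Without normal replicate 1 the Apbb1ip value was -0.09, and without normal replicate 3 that of Rap1a was -0.05.

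Of 11 genes that restrain or recycle integrins the signs were 5 higher against 6 lower (median -0.03). Rab21, a GTPase that carries beta 1 integrins through endosomes, was the 1 with an unadjusted p under 0.05. It was at 1.59, 1.72 and 1.71 on diabetic and 1.92, 1.79 and 2.20 on normal arrays (difference -0.30, SE 0.13, limma adjusted p 0.887), and its difference was -0.18 without normal replicate 3. The groups did not overlap, as for 5.66% of all genes in this direction. Krit1, a scaffold that binds the integrin inhibitor Itgb1bp1, differed by 0.19 (SE 0.12) and the filamin gene Flna by 0.20 (SE 0.13). These were 0.09 for Krit1 without normal replicate 1 and 0.11 for Flna without diabetic replicate 3.

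Among 16 measured ligands other than laminin, 8 were higher and 8 lower and 0 had an unadjusted p under 0.05. Postn, the matrix protein periostin, differed by -0.20 (SE 0.11), the matricellular Ccn1 by -0.23 (SE 0.15) and Icam2, a ligand of the leukocyte integrins, by 0.19 (SE 0.13). Those of Ccn1 and Icam2 were -0.13 without normal replicate 2 and 0.09 without diabetic replicate 1. Of 14 basement membrane partners and other laminin receptors 8 were higher and 6 lower, and 8 were above the limit on all arrays. The proteoglycan gene Cspg4 differed by 0.15 (SE 0.11), Rpsa, a ribosomal protein that also binds laminin, by 0.17 (SE 0.17) and the collagen IV gene Col4a2 by -0.14 (SE 0.16). For Cspg4 the diabetic arrays lay wholly above, as for 5.02% of all genes. The Col4a2 value was -0.02 without normal replicate 3 and that of Rpsa 0.09 without normal replicate 1. No gene in these 5 lists passed the adjusted threshold.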

How the data were processed

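RNA from fixed tissue was labelled with biotin by the WT Pico kit and hybridised to arrays, per the labels' protocols. The deposited table holds log2 signals for 35556 probe sets on 6 arrays, where base 2 is inferred from the range of values. Partek is named, without version, in the submitters' processing notes, and how the authors corrected background, normalized and summarized probes is not stated in what was used here. Of the probe sets, 21789 had 1 gene symbol in the array annotation, 1621 several and 12146 none. Symbols were updated by gene ID through RefSeq GRCm38.p6 (21698 matched). The number of columns of other samples was 0.

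Groups and replicate numbers came from sample titles. The group difference was fitted in R 4.3.3 with limma 3.58.1 (lmFit, eBayes with an intensity trend), over all 19938 genes unfiltered, with no covariate. P-values were adjusted by Benjamini-Hochberg. The fit was checked on simulated data. Signals are those of the brightest probe set per gene, and the number of arrays limits precision. No label gives a batch.

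The members, gene lists and background limit were chosen with earlier results of these data known. Values are given for epidermal members, members above the limit on all arrays and the 4 smallest p each way, and other members more briefly. For each pathway list the 3 smallest p are named. Alternatives covered scaling, the variance model, array weights, filters, probe set averaging, a replicate block and each array left out. Levels of different probe sets were set against each other only through the background limit.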

Additional observations from a re-analysis of the deposited data

How the results depend on the processing

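No member passed the adjusted threshold under any of the 9 alternatives to scaling, variance model, array weights, filters, probe set averaging or pairing, or with any 1 array left out. In those 9, with the second probe set of Itgad counted too, all 288 member differences kept their sign, as did all 120 of the named pathway genes. Most of this was fixed in advance, because the variance model, the filters and the replicate block leave a difference unchanged. Probe set averaging could move Itgad alone among the members. Only scaling and array weights could turn the sign of the other members. With 1 array left out, 35 of 222 member differences turned sign, in 20 of the 37 members, and 0 of 90 pathway differences. The pathway genes were named for the smallest p in each list, while every member was counted, so these 2 counts cannot be compared. Why member differences turned was not tested, and the differences of those members are small. The ranges over the 6 omissions were -0.055 to 0.14 (Itga11), -0.040 to 0.063 (Itga2b), -0.043 to 0.18 (Itga6), -0.032 to 0.15 (Itga7), -0.059 to 0.11 (Itga8), -0.15 to 0.022 (Itga9), -0.11 to 0.057 (Itgad), -0.0041 to 0.17 (Itgal), -0.11 to 0.022 (Itgax), -0.014 to 0.069 (Itgb1), -0.10 to 0.11 (Itgb2), -0.054 to 0.20 (Itgb3), -0.23 to 0.19 (Itgb4), -0.21 to 0.052 (Itgb5), -0.043 to 0.090 (Lama1), -0.13 to 0.10 (Lama4), -0.15 to 0.073 (Lamb1), -0.19 to 0.12 (Lamb2), -0.041 to 0.13 (Lamb3) and -0.10 to 0.12 (Lamc1). Of the 17 members that kept their sign, 15 moved by over 1.5 times (not Itga2 and Lama5), as did 11 of the 15 pathway genes. Between 17 and 24 members were higher. The members' median difference was -0.03 without diabetic replicate 2 and between 0.004 and 0.03 without another array. Over all genes, 0 to 2 passed with 1 array left out (2 without diabetic replicate 2, 1 without diabetic replicate 3), none of them a member. Members with an unadjusted p under 0.05 numbered 1 to 2 with 1 array left out, the 2 being Itga1 and Itgb2l without normal replicate 3. The 1 was Itgam without diabetic replicate 3, Itga2 without normal replicate 2, Lama5 with no variance moderation, and Itgb2l in the other settings that gave 1. Filters fit fewer genes: above the median signal, 563 genes had an unadjusted p under 0.05 and 12 of 20 members were higher, and above the background limit on 3 arrays these were 363 genes, 0 members, and 4 of 8 higher. With the replicate block 1147 genes and 1 member, Itgb2l, had an unadjusted p under 0.05. Deviations of same-numbered arrays from their group means correlated at -0.02, 0.01 and 0.01 over all genes. Of these genes 51.5% were above the limit on no array, so the correlations cannot decide whether the samples were paired. The block changed no call.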

Other observations

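Itgam also appears beside the ribosomal protein gene Rpl35 in the annotation of 3 probe sets, which were left out because they name more than 1 gene. Their mean signals were 2.78, 2.75 and 2.45 in diabetic samples and 2.92, 2.92 and 2.49 in normal samples, with differences of -0.14, -0.17 and -0.04. The probe set annotated to Itgam alone differed by 0.20, the opposite sign. Which transcript the shared probe sets measure was not tested.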
